A study of Mus musculus with 7 samples.

Results

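The complement genes of bone marrow-derived dendritic cells (BMDCs) were compared between mature and immature cells. The 9 genes were chosen by name and make up 9 of the 28666 genes in the expression table, and all 9 had enough reads to be tested. They encode the C1q chains C1qa, C1qb and C1qc, the central component C3, the alternative pathway proteins Cfb and Cfp, the anaphylatoxin receptors C3ar1 and C5ar1, and the membrane regulator Cd55. RNA-seq was made from 3 libraries labelled immature and 4 labelled mature. Bone marrow of female C57BL/6 mice aged 6 to 8 weeks was cultured for 7 days with GM-CSF (20 ng/mL) and IL-4 (10 ng/mL). The BMDCs then shared a Transwell system with the mouse colon carcinoma line MC38 and were sorted by flow cytometry. Sorting followed 24 h of the glutamine antagonist DON, for which a dose of 5 μM and the solvent DMSO as control are named, and the labels of the libraries give no treatment. Sorting by maturation state is therefore the only contrast the labels give, and the markers of this sort are not given in the sources used here. The study describes its data in general as coming from independent biological experiments, but the labels do not say which mice or cultures these libraries came from. The p-values therefore measure the spread between these libraries, part of which may be technical.

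Complement is a set of proteins that tag particles for uptake and recruit leukocytes. C1q, built from A, B and C chains, starts the classical pathway when it binds antibody complexes or dying cells. Both this pathway and the alternative pathway, which runs through factor B (Cfb) and is stabilised by properdin (Cfp), cleave C3. The fragments C3a and C5a act on the receptors encoded by C3ar1 and C5ar1, and CD55 speeds the decay of the enzymes that cleave C3. Unlike most complement proteins, which come from the liver, C1q and properdin are made largely by myeloid cells, including macrophages and immature dendritic cells.

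Total counts were 54846746 to 67973086 per library. The dendritic cell marker Itgax was present in all libraries, at 240 to 261 FPKM in immature and 161 to 227 FPKM in mature cells. FPKM scales counts by gene length and library size and is used here to compare genes with each other. Of 9 dendritic cell markers, none was lower and 5 were higher in mature cells by the criteria given below, beside 13.2% of tested genes. These 5 were Zbtb46, Flt3, Ccr7, Cd83 and Cd40, while Itgax, H2-Ab1, H2-Aa and Cd74 did not pass the criteria. The list summed to 4408 to 4555 FPKM in immature and 6775 to 8846 FPKM in mature libraries. Most of this was Cd74, at 3387 to 3491 FPKM and 4345 to 6029 FPKM, which did not pass the criteria. All 10 of 10 macrophage markers were lower in mature cells, beside 9.95% of tested genes, with a median log2 fold change of -2.08. Their summed level was 8683 to 8802 FPKM in immature and 1100 to 1368 FPKM in mature libraries. Most of it was Lyz2, at 7872 to 8021 FPKM in immature and 902 to 1154 FPKM in mature libraries. No marker on this list was at 0 in every library. In these bulk samples fewer cells of a type and less RNA per cell cannot be told apart, and the part of macrophage-type cells in the results that follow was not tested. The 8 cardiac muscle markers were all called higher in mature cells, beside 13.2% of tested genes. They summed to at most 2.17 FPKM in immature libraries, 12.2 FPKM in mature replicate 1 and 257 to 271 FPKM in mature replicates 2, 3 and 4. In mature replicate 1 Tnni3 alone was at 11.2 FPKM. Mb, Myh6 and Ckm were at 0.18, 0.07 and 0 FPKM there and overlapped between the groups. Hepatocyte markers, of the main source of circulating complement, summed to at most 1.48 FPKM in any library. The summed levels were at most 9.84 FPKM for neutrophil, 0.6 FPKM for B cell and 1.42 FPKM for T cell markers. Epithelial markers summed to 17.2 to 21.3 FPKM in immature and 13.8 to 21.6 FPKM in mature libraries.

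Mature BMDCs had much lower transcript levels of C1q, properdin and both anaphylatoxin receptors, whereas C3, Cfb and Cd55 did not pass the criteria. The test was edgeR's quasi-likelihood test across 17461 genes. A gene was called if its log2 fold change reached 1 in size and its Benjamini-Hochberg adjusted p was under 0.05. Among the 9 genes, 6 were called lower in mature cells, beside 9.95% of all tested genes. No complement gene of the 9 was called higher, beside 13.2% of tested genes, and DESeq2 also called 0. At an unadjusted p under 0.05 the number higher was 1, Cfb. The median log2 fold change of the 9 genes was -2.06, and that of all tested genes was 0.055. At any fold change, 8 of the 9 had an adjusted p under 0.05, beside 46.1% of tested genes. The mature and immature libraries did not overlap for 7 of the 9, with mature cells lower in each, beside 52.1% of tested genes in either direction.

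The 3 genes of the C1q chains lie next to each other on the minus strand of mouse chromosome 4 in build GRCm38. C1qa (ENSMUSG00000036887) spans 136895917 to 136898803, C1qc (ENSMUSG00000036896) 136889804 to 136893065, and C1qb (ENSMUSG00000036905) 136880129 to 136886187. Because these neighbours fell together, the 250 bases before the RefSeq start (GRCm38.p6, minus strand, 5′ to 3′) are shown for C1qb and C1qc, followed by those of C5ar1, which fell to a like extent, and C3, which was not called. The RefSeq starts of C1qc and C5ar1 lie inside the annotated spans of these genes, so part of each of these windows is within the span. That part holds the match in C5ar1 but not the match in C1qc. Capitals mark matches to the searched letters on either strand.
C1qb, chr4:136886201-136886450: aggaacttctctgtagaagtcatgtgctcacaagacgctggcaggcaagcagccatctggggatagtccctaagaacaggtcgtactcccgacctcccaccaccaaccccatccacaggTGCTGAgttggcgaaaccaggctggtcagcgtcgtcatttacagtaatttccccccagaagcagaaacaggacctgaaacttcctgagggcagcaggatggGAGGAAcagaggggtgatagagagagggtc
C1qc, chr4:136892915-136893164: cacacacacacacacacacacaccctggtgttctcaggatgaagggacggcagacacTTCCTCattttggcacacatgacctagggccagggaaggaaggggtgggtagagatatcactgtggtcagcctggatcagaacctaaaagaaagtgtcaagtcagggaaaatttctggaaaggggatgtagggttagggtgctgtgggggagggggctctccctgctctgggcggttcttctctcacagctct
C5ar1, chr7:16259339-16259588: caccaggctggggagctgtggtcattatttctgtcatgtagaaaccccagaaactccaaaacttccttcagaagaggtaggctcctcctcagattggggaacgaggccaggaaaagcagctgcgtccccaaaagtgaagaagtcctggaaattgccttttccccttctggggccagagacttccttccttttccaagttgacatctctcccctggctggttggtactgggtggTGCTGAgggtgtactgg
C3, chr17:57228137-57228386: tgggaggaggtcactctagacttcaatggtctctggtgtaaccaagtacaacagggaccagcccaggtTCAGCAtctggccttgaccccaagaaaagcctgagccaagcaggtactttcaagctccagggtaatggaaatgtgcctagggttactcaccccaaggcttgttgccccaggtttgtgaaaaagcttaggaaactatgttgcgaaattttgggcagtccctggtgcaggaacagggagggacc

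Windows of 250 bases before to 50 after the start were searched on both strands and were found for 7 of the 9 genes, all but C1qa and Cfb. The letters GAGGAA, the core bound by the Ets factor PU.1, occurred in C1qb, C1qc and Cfp, 3 of 7, and in 28.3% of all 32851 RefSeq windows. In C1qb the match began 30 bases and in C1qc 193 bases before the start. The letters TGCTGA, a core element bound by Maf factors, occurred in C1qb, C3, C3ar1, C5ar1 and Cd55, 5 of 7, and in 19.5% of all windows. This match began 131 bases before the start in C1qb, 17 bases in C5ar1 and 182 bases in C3. It occurred in C1qb, C3ar1 and C5ar1, which fell, and in C3 and Cd55, which were not called. C1qc and Cfp, which also fell, had no such match. A kappa B pattern, GGG and TTCC with 3 free bases between them, occurred in C3ar1 alone and in 5.56% of all windows. An interferon response pattern, GAAA at both ends of 2 free bases, occurred in none of the 7 and in 3.44% of all windows. These are matches of letters only, and the patterns share no bases in the printed windows.

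C1qb, the most abundant of the chains, was at 330, 349 and 339 CPM in immature replicates 1 to 3 and at 48.9, 42.9, 63.4 and 40.7 CPM in mature replicates 1 to 4. CPM here is the count scaled by the TMM-normalized library size. The groups were far apart, and the highest mature library, replicate 3, was well below every immature one. The level was 6.92-fold lower in mature cells (log2 fold change -2.79, standard error (SE) 0.15, edgeR adjusted p = 1.63e-06). C1qa was at 77.6, 86.5 and 86.5 CPM in immature and 11.3, 12.7, 17.4 and 13.9 CPM in mature replicates. It was 6.05-fold lower (log2 fold change -2.60, SE 0.15, edgeR adjusted p = 2.03e-06). C1qc was at 161, 164 and 161 CPM in immature and 24.4, 22.5, 33.9 and 22.6 CPM in mature replicates, again with replicate 3 the highest of the mature libraries. It was 6.27-fold lower (log2 fold change -2.65, SE 0.15, edgeR adjusted p = 1.95e-06). The direction and the call of each chain held when any single library was left out, with log2 fold changes of -2.70 to -2.51 for C1qa, -2.92 to -2.71 for C1qb and -2.78 to -2.58 for C1qc.

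**Figure D1:**
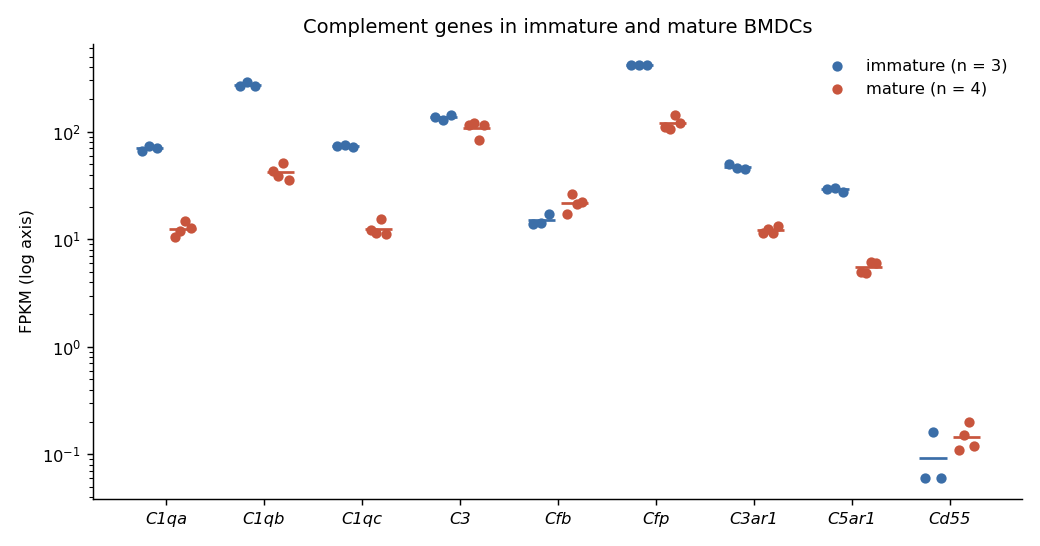
FPKM on a log axis of the 9 complement genes, with a point per library and a line at the mean of 3 immature (blue) and 4 mature (red) libraries. The groups are apart for C1qa, C1qb, C1qc, Cfp, C3ar1 and C5ar1, come close for C3 and Cfb, and overlap for Cd55, which is at 0.2 FPKM or less in every library.

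Properdin was the most abundant of these transcripts in immature cells by FPKM, which allows for length. Cfp (ENSMUSG00000001128, chromosome X from 20925454 to 20931555) was at 819, 816 and 839 CPM in immature and 198, 189, 280 and 219 CPM in mature replicates. The groups did not overlap, and mature replicate 3 was the highest of its group. The level was 3.73-fold lower in mature cells (log2 fold change -1.90, SE 0.13, edgeR adjusted p = 7.69e-06). Even so, Cfp remained above 97.9% of tested genes by mean FPKM in mature cells, against 99.5% in immature cells.

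C3 and Cfb, whose products form the alternative pathway enzyme that cleaves C3, did not pass the criteria. C3 (ENSMUSG00000024164, chromosome 17 from 57203970 to 57228136) was at 798, 740 and 855 CPM in immature and 610, 626, 490 and 627 CPM in mature replicates. Each mature library was below each immature one, and replicate 3 was the lowest. The mean was 1.36-fold lower, a log2 fold change of -0.44 (95% interval -0.69 to -0.19, edgeR adjusted p = 0.00955), which is under the fold criterion. Over the alternatives the adjusted p of C3 ran from 0.000817 to 0.109.

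Cfb (ENSMUSG00000090231, chromosome 17 from 34856374 to 34862518) was at 44.6, 45.1 and 56.4 CPM in immature and 50.6, 75.2, 68.7 and 65.3 CPM in mature replicates. Mature replicate 1 lay within the immature range and the other mature libraries above it. The log2 fold change was 0.42 (95% interval 0.078 to 0.75, edgeR adjusted p = 0.0472), also under the fold criterion. Over the alternatives the adjusted p of Cfb ran from 0.00958 to 0.686, the highest with mature replicate 1 as the sole mature library, where the log2 fold change was 0.081 and the spread came from the immature libraries alone. Mature replicates 2, 3 and 4 are those with cardiac transcripts, whose part in the level of Cfb was not tested. Another gene of the same strand, Gm20547, overlaps Cfb in the annotation, with at most 12 counts in a library against 2508 or more for Cfb.

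Both receptors of the anaphylatoxins fell. C3ar1 (ENSMUSG00000040552, chromosome 6 from 122847138 to 122856161), the receptor of C3a, was at 246, 222 and 227 CPM in immature and 51.3, 54.7, 55.5 and 60.6 CPM in mature replicates. The mature libraries lay close together, with a SD of 3.83 CPM. The level was 4.17-fold lower (log2 fold change -2.06, SE 0.084, edgeR adjusted p = 4.94e-07). C5ar1 (ENSMUSG00000049130, chromosome 7 from 16246743 to 16259540), the main receptor of C5a, was at 85.9, 86.9 and 83.0 CPM in immature and 13.4, 12.6, 18.0 and 16.1 CPM in mature replicates. It was 5.68-fold lower (log2 fold change -2.51, SE 0.13, edgeR adjusted p = 1.38e-06), with no overlap of the groups.

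Cd55 (ENSMUSG00000026399, chromosome 1 from 130439027 to 130462744) was close to the limit of detection. It had 21, 50 and 23 counts in immature and 38, 50, 60 and 41 counts in mature replicates. Immature replicate 2 was as high as the mature libraries, so the groups overlapped. The log2 fold change was 0.54 (95% interval -0.54 to 1.61, edgeR adjusted p = 0.390), so that no difference could be detected at these counts. Without immature replicate 2 it was 1.12 (edgeR adjusted p = 0.106). An antisense gene, Gm16083, overlaps Cd55, and whether the counting used strand is not given in the sources used here. The paralog Cd55b had 8 counts in immature replicate 1 and 0 in the other libraries.

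**Figure D2:**
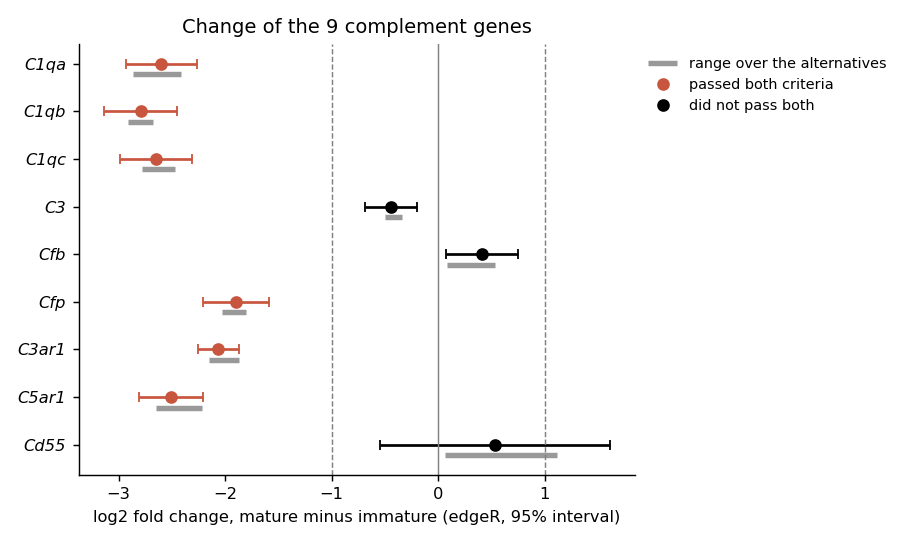
Log2 fold change (mature minus immature) of each gene with its 95% interval from edgeR. Grey bars give the range over the alternative analyses and dashed lines the fold criterion of 1 on the log2 scale. The 6 genes in red lie between -2.79 and -1.90, while C3, Cfb and Cd55 (black) lie between -0.44 and 0.54.

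Per unit of length, the order of the transcripts differed between the states. In immature cells Cfp was highest at 417 ± 3.63 FPKM (SD, n = 3), followed by C1qb at 274 ± 11.5, C3 at 136 ± 6.79, C1qc at 73.8 ± 2.22 and C1qa at 70.6 ± 4.17 FPKM. C3ar1 at 47.3 ± 2.95, C5ar1 at 29.2 ± 1.37, Cfb at 15.1 ± 1.70 and Cd55 at 0.0933 ± 0.058 FPKM came after them. The ranges of C1qc and C1qa overlapped, and those of the other neighbours in this order did not. In mature cells Cfp at 120 ± 16.0 FPKM (SD, n = 4) and C3 at 109 ± 16.5 FPKM overlapped at the top. C1qb followed at 42.4 ± 6.84 FPKM and Cfb at 21.7 ± 3.66 FPKM. C1qc at 12.6 ± 1.99, C1qa at 12.5 ± 1.80 and C3ar1 at 12.2 ± 0.954 FPKM could not be ordered by their ranges. C5ar1 stood at 5.49 ± 0.677 FPKM and Cd55 at 0.145 ± 0.040 FPKM.

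The summed level of the 9 genes was 1054 to 1077 FPKM in immature and 324 to 347 FPKM in mature libraries. The 3 C1q chains made up 38.6% to 40.6% of that sum in immature and 17.6% to 23.5% in mature libraries. C3 made up 11.96% to 13.5% and 24.2% to 36.0%, and Cfb 1.32% to 1.62% and 5.33% to 7.88%. Cfp kept a similar part, at 39.0% to 39.5% in immature and 32.1% to 41.0% in mature libraries, where the ranges overlapped.

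**Figure D3:**
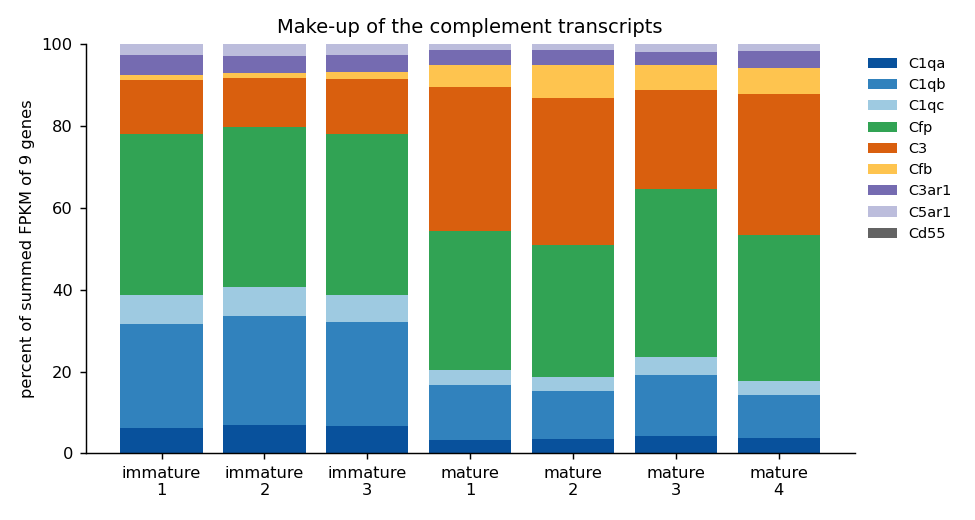
Share of each gene in the summed FPKM of the 9 complement genes, as a stacked bar per library. The C1q chains (blues) take 38.6% to 40.6% in immature and 17.6% to 23.5% in mature libraries, and C3 and Cfb (orange and yellow) take a larger part in all 4 mature libraries.

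Ratios within a library asked whether partner genes changed in proportion. Each was tested by a two-sided exact permutation test over 35 labelings, whose smallest possible p is 0.0571, with adjustment over the 4 ratios. C1qb exceeded C1qa by 4.06-, 3.86- and 3.74-fold in immature and by 4.15-, 3.25-, 3.49- and 2.81-fold in mature replicates. These overlapped, with a difference of the mean log2 ratio of -0.20 (exact permutation p = 0.286, adjusted p = 0.381). The value rested in part on single libraries. Without mature replicate 1 it was -0.29 and the groups no longer overlapped (exact permutation p = 0.1, the smallest possible with 3 against 3), and without mature replicate 4 it was -0.11. The ratio of C1qc to C1qa was 1.00 to 1.12 in immature and 0.877 to 1.17 in mature libraries, a difference of -0.055 on the log2 scale (exact permutation p = 0.686, adjusted p = 0.686).

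The other ratios did not overlap between the groups. C3ar1 exceeded C5ar1 by 1.71-, 1.53- and 1.63-fold in immature and by 2.30-, 2.60-, 1.84- and 2.25-fold in mature replicates, a difference of 0.46 on the log2 scale (exact permutation p = 0.0571, adjusted p = 0.114). C3 exceeded Cfb by 9.83-, 9.03- and 8.34-fold in immature and by 6.62-, 4.57-, 3.92- and 5.28-fold in mature replicates, a difference of -0.85 (exact permutation p = 0.0571, adjusted p = 0.114). Both reached the smallest p the design allows, which does not pass 0.05.

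**Figure D4:**
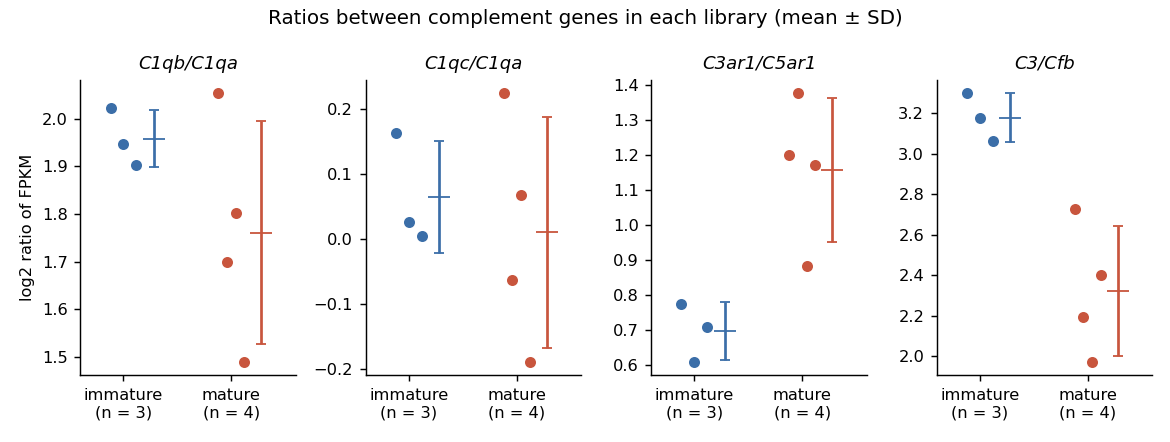
Log2 ratio of FPKM between pairs of complement genes in each library, with the mean ± SD of 3 immature (blue) and 4 mature (red) libraries beside the points. The C1q ratios overlap between groups, C3ar1 to C5ar1 is higher and C3 to Cfb lower in all 4 mature libraries.

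The rest of the pathway was described with a list of 51 complement genes, of which 42 were analysed here and 29 had enough reads to be tested. The other 13 had at most 23 counts in a library. Of the 29, 8 were called lower, beside 9.95% of all tested genes, and 5 higher, beside 13.2%. Their median log2 fold change was -0.22, against 0.055 over all tested genes. The genes called are described by role, and counts within a role are small.

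Among 8 receptors and C1q-binding proteins tested, 5 were lower in mature cells, beside 9.95% of all tested genes. Itgam and Itgb2 encode complement receptor 3. Itgam was at 386 to 434 FPKM in immature and 42.5 to 74.0 FPKM in mature libraries (log2 fold change -2.85, SE 0.16, edgeR adjusted p = 1.78e-06). Itgb2 was at 544 to 568 FPKM and 122 to 170 FPKM (log2 fold change -2.06, SE 0.11, edgeR adjusted p = 1.39e-06). Itgax, which pairs with Itgb2 in complement receptor 4, did not pass the fold criterion, with a log2 difference of -0.41 (SE 0.11, edgeR adjusted p = 0.0124). Cd93 was at 17.2 to 20.2 FPKM in immature and 2.00 to 2.89 FPKM in mature libraries, a log2 fold change of -3.00 (edgeR adjusted p = 5.49e-07). C5ar2, the second C5a receptor, had a log2 difference of -2.57 (SE 0.37, edgeR adjusted p = 0.00053) and at most 1.48 FPKM. Lrp1, an uptake receptor that binds C1q, had a log2 difference of -2.11 (SE 0.15, edgeR adjusted p = 8.02e-06). Calr, the calreticulin gene, missed the fold criterion alone, with a log2 fold change of -0.75 (edgeR adjusted p = 7.83e-05) and every mature library below every immature one. C1qbp was not called (log2 fold change 0.069, edgeR adjusted p = 0.692).

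Among 8 recognition molecules and initiating proteases tested, 3 were lower, beside 9.95% of all tested genes. C1ra, whose product is a protease that C1q carries, was at 11.2 to 11.9 FPKM in immature and 2.26 to 3.90 FPKM in mature libraries (log2 fold change -2.01, SE 0.18, edgeR adjusted p = 3.63e-05). It has a close paralog, C1rb, with which it can share reads and which was not called (log2 fold change -2.49, edgeR adjusted p = 0.0501). Colec12 and the ficolin gene Fcna were lower but under 1 FPKM in every library, with log2 fold changes of -1.76 (edgeR adjusted p = 0.000316) and -1.67 (edgeR adjusted p = 0.0197). The call of Fcna was lost with the replicate number as a block (edgeR adjusted p = 0.135) and without immature replicate 1 (0.0924) or 2 (0.0580). C1s1, the other protease of C1, was not called (log2 fold change -0.35, edgeR adjusted p = 0.641).

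**Figure D5:**
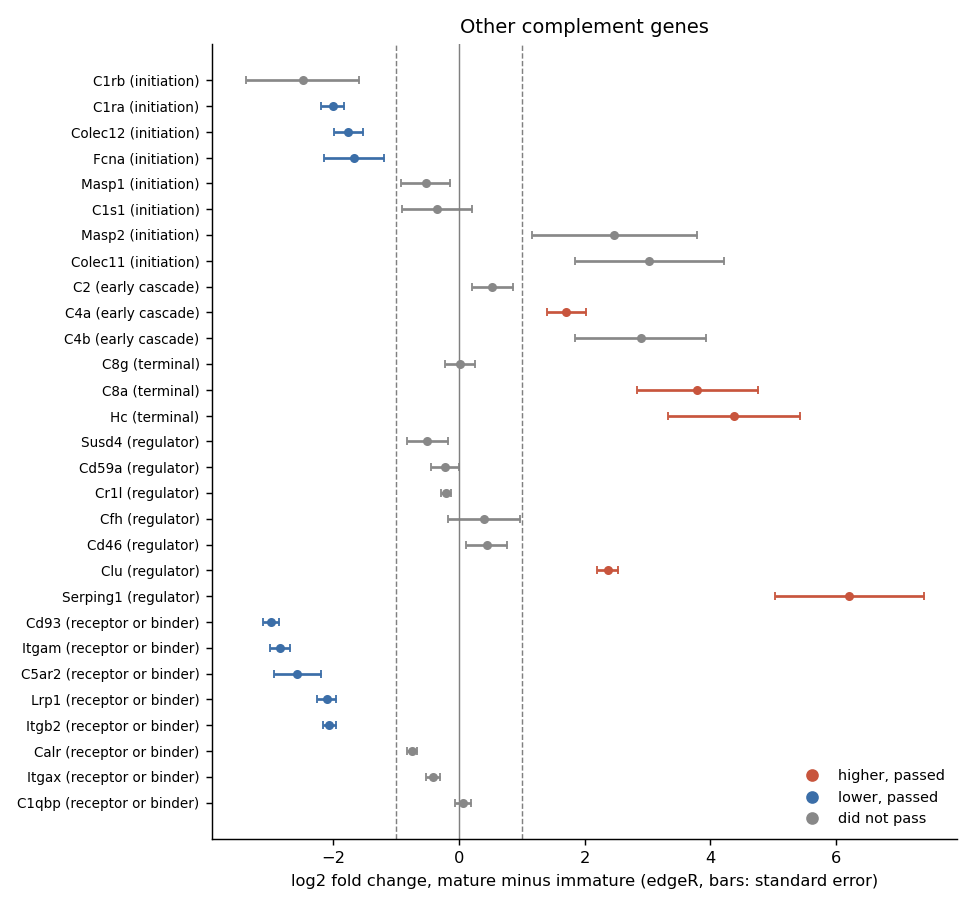
Log2 fold change (mature minus immature) with its standard error for the 29 other complement genes tested, grouped by role. Red genes were called higher, blue genes lower and grey genes neither, and dashed lines mark a log2 fold change of 1. The blue genes are receptors, binders and initiators, and Serping1 is the gene farthest to the right.

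Of 7 regulators tested, 2 were higher, beside 13.2% of all tested genes, which in so few genes is no result about regulators. Clu, which encodes clusterin, an inhibitor of the terminal complex, was at 4.33, 4.99 and 6.03 FPKM in immature and 26.3, 28.1, 32.3 and 27.1 FPKM in mature replicates. All 4 mature libraries were above all 3 immature ones (log2 fold change 2.37, SE 0.16, edgeR adjusted p = 6.16e-06). Serping1, the C1 inhibitor gene, had 0, 4 and 0 counts in immature and 19, 131, 150 and 142 counts in mature replicates (edgeR adjusted p = 0.00262). Its high libraries, mature replicates 2, 3 and 4, were those with cardiac transcripts, whose part was not tested. The membrane regulator Cr1l, at 6.48 to 6.81 FPKM in immature and 5.81 to 6.97 FPKM in mature libraries, was not called (log2 fold change -0.21, edgeR adjusted p = 0.0734).

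Of 3 early cascade genes tested, 1 was higher, C4a, and of 3 terminal genes tested 2 were higher, Hc and C8a. The share of all tested genes was 13.2%, and in so few genes this is no result about the cascade. C4a, Hc and C8a were under 1 FPKM in every library. C4a, which can share reads with C4b, had 44 to 70 counts in immature and 129 to 232 counts in mature libraries (log2 fold change 1.71, SE 0.31, edgeR adjusted p = 0.00186). C4b was not called (log2 fold change 2.89, edgeR adjusted p = 0.0508), with 0 to 22 counts in immature and 20 to 101 counts in mature libraries. Hc, the C5 gene, had 0, 0 and 4 counts in immature and 32, 56, 16 and 21 counts in mature replicates (edgeR adjusted p = 0.00883). C8a had 0, 8 and 2 counts and 45, 101, 26 and 36 counts (edgeR adjusted p = 0.0111). C2 was not called (log2 fold change 0.53, edgeR adjusted p = 0.225).

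The genes whose pattern over the 7 libraries was most like that of a complement gene were found by the root mean square difference of log2 CPM, centred on each gene's mean. With libraries in separate groups, this mainly ranks genes by the size of the change. For C1qc the nearest gene was C1rl, which encodes a C1r-like protease, at a difference of 0.082 and with 3.64 FPKM in immature and 0.61 FPKM in mature cells. For C1qb it was Klk1b1 (0.083), for C1qa Amz1 (0.078) and for C5ar1 Ctsd, the cathepsin D gene (0.039). For Cfp it was Alox5ap (0.047), which serves leukotriene synthesis, and for C3ar1 Atp6v0d2 (0.055), a subunit of the vacuolar proton pump. For C3 it was Itgax (0.029), which also shares its low value in mature replicate 3. For Cfb and Cd55 the nearest were Gm10575 (0.085) and Rps2-ps5 (0.11), both under 1 FPKM on average in each group.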

How the data were processed

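RNA of flow-sorted BMDCs was analysed in 3 immature and 4 mature libraries, grouped by their labels. The deposited table holds raw counts in whole numbers and, beside them, FPKM as the authors computed it, rounded to 2 decimals. The submitters' processing notes name cutadapt 1.9, HISAT2 2.2.1, StringTie 2.1.6, DESeq2 and edgeR and the build mm9. The coordinates in the table equal those of GENCODE M21 on GRCm38 for all 9 genes and for 25805 of 28588 shared gene IDs. Low counts pile up at multiples of 4 (6956 values of 4 against 3473 of 3 and 2146 of 5), so a fragment may be worth several counts.

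Counts were tested in R 4.3.3 with edgeR 4.0.16 (filterByExpr, TMM, quasi-likelihood test), mature against immature, over all 7 libraries. The standard error is the log2 fold change divided by the square root of F. Median chi-square values per gene between replicates were 3.83 to 25.6, the highest with mature replicate 3. Sampling noise would give 0.455 if each count were a separate fragment, and more where a fragment is worth several counts. Alternatives used DESeq2 1.42.0, limma 3.58.1 on log2 FPKM with pseudocounts of 1 or 0.1 (genes reaching 1 FPKM in 3 libraries, or all genes), relative log expression, no filter on counts, no fold criterion, each library left out and a replicate block. Counts divided by 4, and mature replicate 1 as the sole mature library, were added after seeing the data. The tests were tested on simulated counts. Python 3.11.15 with scipy 1.17.1 gave the exact permutation tests.

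The genes, the lists of complement genes and markers and the rule for named genes were chosen with earlier results of these data known. The rule names the 9 genes, each of the 51 listed genes that was called, and the 3 nearest genes in pattern, of which the first is printed. Listed genes that were not called, and Gm20547, Gm16083, Cd55b and C1rb were named after their values were seen. Promoter sequences are from RefSeq on GRCm38.p6.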

Additional observations from a re-analysis of the deposited data

Results flagged for a closer look

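Of 26 genes and ratios checked, 3 had a mature library set apart from its group. Chance would give about 1.3, but values from the same libraries are not independent, so this number cannot judge the 3. The library set apart was mature replicate 3 each time. As a share of the group's range, the gap between it and its closest neighbour was 0.8293 for the CPM of C1qc, 0.872 for that of C3 and 0.859 for that of Clu. C1qc was at 33.9 CPM there and at 22.5 to 24.4 CPM in the other mature libraries. C3 was at 490 CPM against 610 to 627 CPM, and Clu at 126 CPM against 93.7 to 98.2 CPM. Leaving this library out changed the log2 fold change of C3 from -0.44 to -0.34 and changed no call of the 9 genes.

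The deviation of mature replicate 3 went with transcript length, taken as the length that counts and FPKM imply. On the log2 scale, its CPM against the mean of the other mature libraries was 0.47, 0.52 and 0.55 for C1qa, C1qb and C1qc and -0.34 for C3. The implied lengths of these genes were 1130, 1182, 2099 and 5587 bases. Cd55 went the other way, at 0.78 with an implied length of 5546 bases, from 38 to 60 counts in the mature libraries. Spearman's rho was -0.79 over 8 of the genes, without Cd55, whose FPKM is rounded to few digits, and -0.38 over all 9. Over 14086 genes it was -0.47. These points share 1 library, and the cause was not tested.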

How the results depend on the processing

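The 6 complement genes called lower stayed called with each of the alternatives run, and C3, Cfb and Cd55 were not called with any that kept the fold criterion. Without that criterion C3 (log2 fold change -0.44) and Cfb (0.42) were called, which makes 1 gene higher, and 4047 of all genes were higher and 4006 lower. Of the other complement genes, 1 was higher and 5 lower with limma on log2(FPKM + 1), on log2(FPKM + 0.1) and without a filter, against 5 and 8. The limma filter left out C4a, Hc, C8a, Serping1, Fcna, Colec12 and C5ar2, which did not reach 1 FPKM in 3 libraries. Without the filter, their changes on log2(FPKM + 1) were under the fold criterion, from -0.87 for C5ar2 to 0.74 for Serping1. Among all genes, limma called 946, 1390 and 894 higher in that order, and 822 lower with log2(FPKM + 1), filtered or not, against 2300 and 1737 with edgeR. With counts divided by 4, Fcna, Hc and C8a fell below the filter on low counts and were not tested. With mature replicate 1 as the sole mature library, 2 other complement genes were higher. The spread then comes from the immature libraries alone, and the log2 fold changes of Hc and C8a, no longer called, were 4.40 and 3.55 against 4.38 and 3.80. That of Serping1 was 3.55 against 6.22. The difference of log2 C1qc/C1qa was -0.13 to 0.012 with each library left out, and turned positive without mature replicate 4.

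Same-numbered libraries deviated together little from their group means (correlations of 0.029, -0.0011 and 0.014 over the tested genes). The labels do not say whether the numbers pair libraries. Deviations from the means of so few libraries cannot decide it. With the replicate block, 6 of the 9 genes were called lower and 0 higher, as without it, and 1936 of all genes were called higher and 1680 lower.

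Cd55 rests on 21 to 60 counts and allows no statement on a change within its interval. Among the other complement genes, 13 were not tested for low counts.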
